A study of Rattus norvegicus with 6 samples.

Results

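ATAC-seq peaks that were called in forskolin-treated Med14 S983A cells and in no other library are described here. They were selected on the deposited calls and values themselves: a merged ATAC-seq peak off the mitochondrial chromosome was a member when the Med14 S983A FSK library was the only one whose peak list held it, and when its value in that library was at least 2 FPKM (fragments or reads per kilobase of peak, scaled to the reads that fall in the library's own peaks). Of 220487 merged peaks, 7254 (3.29%) were members. They made up 66.4% of the 10917 peaks called only in Med14 S983A FSK and 5.03% of the 144166 peaks called in that library.

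The cells were INS-1, a rat insulinoma line used as a model of the pancreatic beta cell, either wild type (WT) or carrying Med14 S983A, a knock-in that puts alanine in place of a serine phosphorylated by protein kinase A. Knock-in lines were made by genome editing and grown from sorted single cells, but the sources used here do not give the line behind the mutant libraries. Cells of each genotype were moved to serum-free medium and then left without drug (CON), or given 10 nM exendin-4 (Ex-4), a stable agonist of the GLP-1 receptor, or 10 µM forskolin (FSK), an activator of adenylyl cyclase, for 1 h. With 1 library for each of the 6 conditions there is no replicate error, no test was made, and the differences below describe these libraries. Clone and genotype cannot be told apart.

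ATAC-seq reports where the Tn5 transposase can cut DNA, and its peaks mark promoters, enhancers and other sites with few nucleosomes. Forskolin raises cAMP, which releases the catalytic subunits of protein kinase A. The kinase phosphorylates CREB, a factor bound at cAMP response elements near inducible genes. Mediator carries signals from enhancer-bound factors to RNA polymerase II, and Med14 is the scaffold subunit that joins its modules.

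A value of 0 in the table marks a peak missing from a library's own list rather than a measured absence of reads, so no fold change against 0 is given. Reads in peaks, recovered from the whole-number steps of the smallest values, ranged from 134320000 in Med14 S983A CON to 251150000 in WT FSK, and Med14 S983A FSK had 162960000. A step may be a read or an end of a read pair. The sequence and gene annotation of the build used by the authors, rn6, were not used here, and genes and motifs at the members were therefore not analysed here.

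The members were compared with the peaks that the same rule selects in each of the other libraries. In Med14 S983A cells, 2288 peaks (1.92% of called peaks) were called only in CON and 2829 (2.19%) only with Ex-4. In WT cells the rule gave 2578 peaks for CON (1.96%), 1513 for Ex-4 (1.14%) and 14159 for FSK (8.36%). Both FSK libraries thus stood above the CON and Ex-4 libraries of their genotype, and WT FSK, the deepest library, held more such peaks than Med14 S983A FSK. Depth and treatment moved together here, and the part of depth was not tested.

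**Figure D1:**
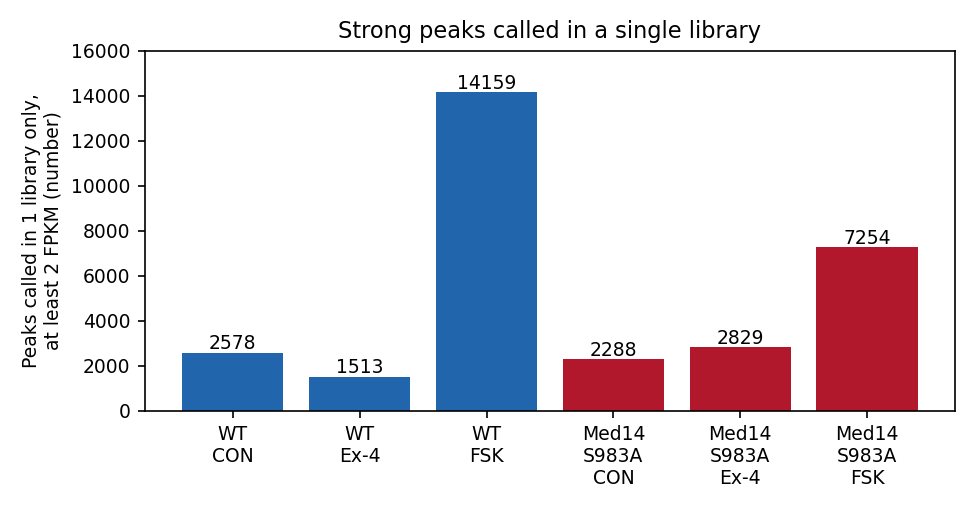
Number of peaks called in a single library with at least 2 FPKM there, for each of the 6 libraries (WT in blue, Med14 S983A in red, 1 library per bar). The members are the last bar, 7254 peaks, and the WT FSK bar reaches 14159, whereas the CON and Ex-4 bars lie between 1513 and 2829.

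Most members lay close to the value that selected them. Their Med14 S983A FSK level had a median of 2.79 FPKM, with a lowest value of 2 and a highest of 64.7. The middle of the distribution was narrow, from 2.34 at the lower quartile to 3.74 at the upper. Of the members, 4202 (57.9%) had 2 to under 3 FPKM, 2030 (28.0%) had 3 to under 5, 724 (9.98%) had 5 to under 10 and 298 (4.11%) had 10 or more. The median member held 61 reads, for which counting alone gives an error of 12.8%. In the other libraries, 7210 members (99.4%) were listed at 0 throughout. The remaining 44 carried a small value somewhere without being called, 17 of them in Med14 S983A Ex-4 and 13 in WT FSK, and the highest such value was 0.827 FPKM.

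Around the threshold, members and excluded peaks were indistinguishable in level. The 3 members just inside it, on chromosome X from 67905105 to 67905283, on chromosome 8 from 13292594 to 13292821 and on chromosome 7 from 126378028 to 126378255, each had 2 FPKM. The 3 peaks just outside it had 1.999 FPKM on chromosome 2 from 22958120, 1.999 on chromosome 3 from 160319010 and 1.998 on chromosome 1 from 37975242. These rest on between 43 and 74 reads each, and their intervals from counting overlap.

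Members were short. Their median length was 120 bp, between 94 and 1134 bp, and 81.9% were under 170 bp. All peaks called in Med14 S983A FSK had a median of 402 bp. Part of this contrast follows from merging, because a peak called in several libraries is the union of their calls, and length also enters the FPKM used for selection. Single-library peaks are the fairer reference, and there the gap was small: 134 bp for the 3663 weaker peaks called only in Med14 S983A FSK, 134 bp for the strong peaks called only in WT FSK, and between 116 and 130 bp for the CON and Ex-4 sets chosen by the same rule. Peaks called in the FSK libraries of both genotypes and nowhere else had a median of 191 bp.

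Some members departed from this form. The widest, 1134 bp on chromosome 5 from 167966451 to 167967585, had 8.35 FPKM. Its nearest shared peak, 496 bp away, read 0.695, 0.564 and 2.94 FPKM in WT CON, Ex-4 and FSK and 2.38, 3.91 and 10.9 in Med14 S983A, so that every mutant value but CON exceeded every WT value. The next widest, 748 bp on chromosome 19 from 41582616 to 41583364, had 21.7 FPKM from 2645 reads, the most of any member, beside a shared peak of similar level (21.1 in Med14 S983A FSK, 19.0 in WT FSK). A member of 718 bp on chromosome 2 from 28063057 to 28063775 had 5.12 FPKM.

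The position of members relative to other peaks was examined next. The median gap from a member to the nearest other merged peak was 1469 bp, against 1843 bp for the weaker peaks called only in Med14 S983A FSK, 1724 bp for the strong peaks called only in WT FSK and 1706 bp for all peaks called in Med14 S983A FSK. For 1883 members (25.96%) another peak lay within 500 bp, close to the 25.3% of all peaks called in Med14 S983A FSK. At the other end, 247 members (3.41%) were more than 20 kb from any other peak, against 4.04% of those peaks. The most remote lay on chromosome 2 from 135340563 (3.17 FPKM, 136995 bp from the nearest peak), on chromosome 13 from 22776330 (3.19 FPKM, 130833 bp) and on chromosome 11 from 13740612 (2.84 FPKM, 128466 bp).

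The stronger a member, the nearer it sat to a peak called in every library. Shared peaks are defined here as the 86465 peaks called in all 6 libraries with a mean of at least 1 FPKM. Such a peak lay within 10 kb of 64.9% of members, 67.0% of all peaks called in Med14 S983A FSK and 62.4% of strong WT FSK-only peaks. By level, the share was 55.4% of members at 2 to under 3 FPKM, 69.2% at 3 to under 5, 94.3% at 5 to under 10 and 98.3% at 10 or more. Other peaks were not divided by level, so whether this trend is particular to members was not tested. The median distance to the nearest shared peak fell over these classes of members from 8596.5 to 4963, 1284.5 and 666 bp. The median level of the shared peaks within 10 kb in Med14 S983A FSK rose from 4.86 to 6.22, 12.9 and 31.8 FPKM. Strong members thus lay beside strong shared peaks, and they were not longer than weak members (medians of 121, 120, 116 and 112.5 bp).

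Member and neighbour levels were loosely related. Over the 4711 members with a shared peak within 10 kb, Spearman's rho was 0.38 and Pearson's r of the log2 values was 0.47, as a description across regions of the same library, which share depth and local background. The median member had 0.53 of its neighbour's level, and 953 members (20.2%) exceeded it. Selection kept only member values of 2 FPKM or more, which affects all of these figures. Other peaks were not compared in this way, so whether the figures are particular to members was not tested.

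**Figure D2:**
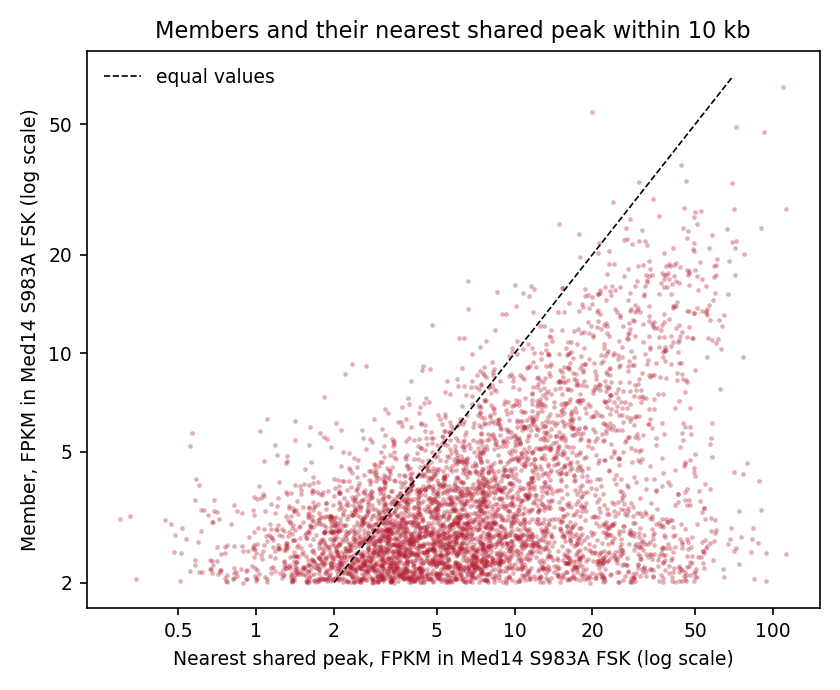
Level of each of 4711 members against that of its nearest shared peak within 10 kb, both in FPKM in Med14 S983A FSK on log scales, with 1 point per member and a dashed line of equal values. Most points lie below the line, and the members of 10 FPKM or more sit beside shared peaks with a median of 31.8 FPKM.

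The highest members illustrate this arrangement. The strongest, 160 bp on chromosome 1 from 221205830 to 221205990, had 64.7 FPKM in Med14 S983A FSK (1688 reads, 95% exact Poisson interval 61.7 to 67.9, which covers counting error only) and was listed at 0 in all the other libraries. Only 111 bp away, from 221205159 to 221205719, a shared peak read 82.9, 85.2 and 80.8 FPKM in WT CON, Ex-4 and FSK and 99.4, 105 and 110 in Med14 S983A. That neighbour was higher in each mutant library than in any WT library and changed little with treatment. In the same neighbourhood, a peak from 221207243 to 221207876 was listed at 0 in WT CON and was higher with FSK than with Ex-4 in both genotypes. It read 13.6 and 57.0 FPKM in WT Ex-4 and FSK, and 44.1, 66.0 and 107 in Med14 S983A CON, Ex-4 and FSK. A peak from 221199787 to 221200977 reached 72.2 FPKM in Med14 S983A FSK, against 18.5 with Ex-4 and 8.75 in CON of that genotype and 8.18 in WT FSK.

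The seventh highest member lay on the same part of chromosome 1, from 221184123 to 221184349, with 33.2 FPKM. Several of the surrounding peaks were likewise highest in Med14 S983A FSK. The peak 168 bp away, from 221184517 to 221185396, read 36.7 FPKM in Med14 S983A FSK, 10.1 with Ex-4 and 8.36 in CON of the same genotype, against 6.02 in WT FSK, and was listed at 0 in the remaining WT libraries. A shared peak from 221181388 to 221182080 gave 3.92, 4.11 and 10.3 FPKM in WT CON, Ex-4 and FSK and 10.6, 13.6 and 30.2 in Med14 S983A. At both peaks WT FSK did not exceed Med14 S983A CON, and Med14 S983A FSK stood above every other library. Other peaks there went the opposite way: that from 221188613 to 221188875 was called in the WT libraries only, at 4.71, 4.93 and 10.8 FPKM in CON, Ex-4 and FSK, and that from 221190222 to 221190358 only in WT FSK, at 11.0 FPKM.

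The other members among the 10 highest covered both situations. On chromosome 7 from 12414991 to 12415102, a member of 48.9 FPKM lay 702 bp from a shared peak that rose with FSK in both genotypes, from 33.9 to 58.4 FPKM in WT and from 43.7 to 72.0 in Med14 S983A. On chromosome 4 from 58504744 to 58504971, a member of 37.6 FPKM lay 221 bp from a shared peak whose Med14 S983A values (35.4, 35.6 and 43.8 in CON, Ex-4 and FSK) all exceeded its WT values (24.3, 20.6 and 27.7). By contrast, members on chromosome 9 from 50883493 (33.4 FPKM), chromosome 2 from 116414902 (29.4) and chromosome 14 from 78309836 (28.8) had nearest shared peaks whose log2 difference between FSK and CON lay between -0.21 and 0.11 in both genotypes.

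Among the rest, a 113 bp member on chromosome 7 from 12957800 to 12957913 had 47.3 FPKM, and its nearest peak was called in the mutant libraries only, at 39.4, 31.2 and 28.5 FPKM in CON, Ex-4 and FSK. The member on chromosome 14 from 104611005 (33.1 FPKM) lay 664 bp from a shared peak with between 69.1 and 69.5 FPKM in the mutant libraries and between 52.0 and 53.8 in WT. An exception in position was the second highest member, 95 bp on chromosome 20 from 48786641 to 48786736. Its 54.3 FPKM exceeded the 19.9 FPKM of its nearest peak, which lay 3467 bp away.

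**Figure D3:**
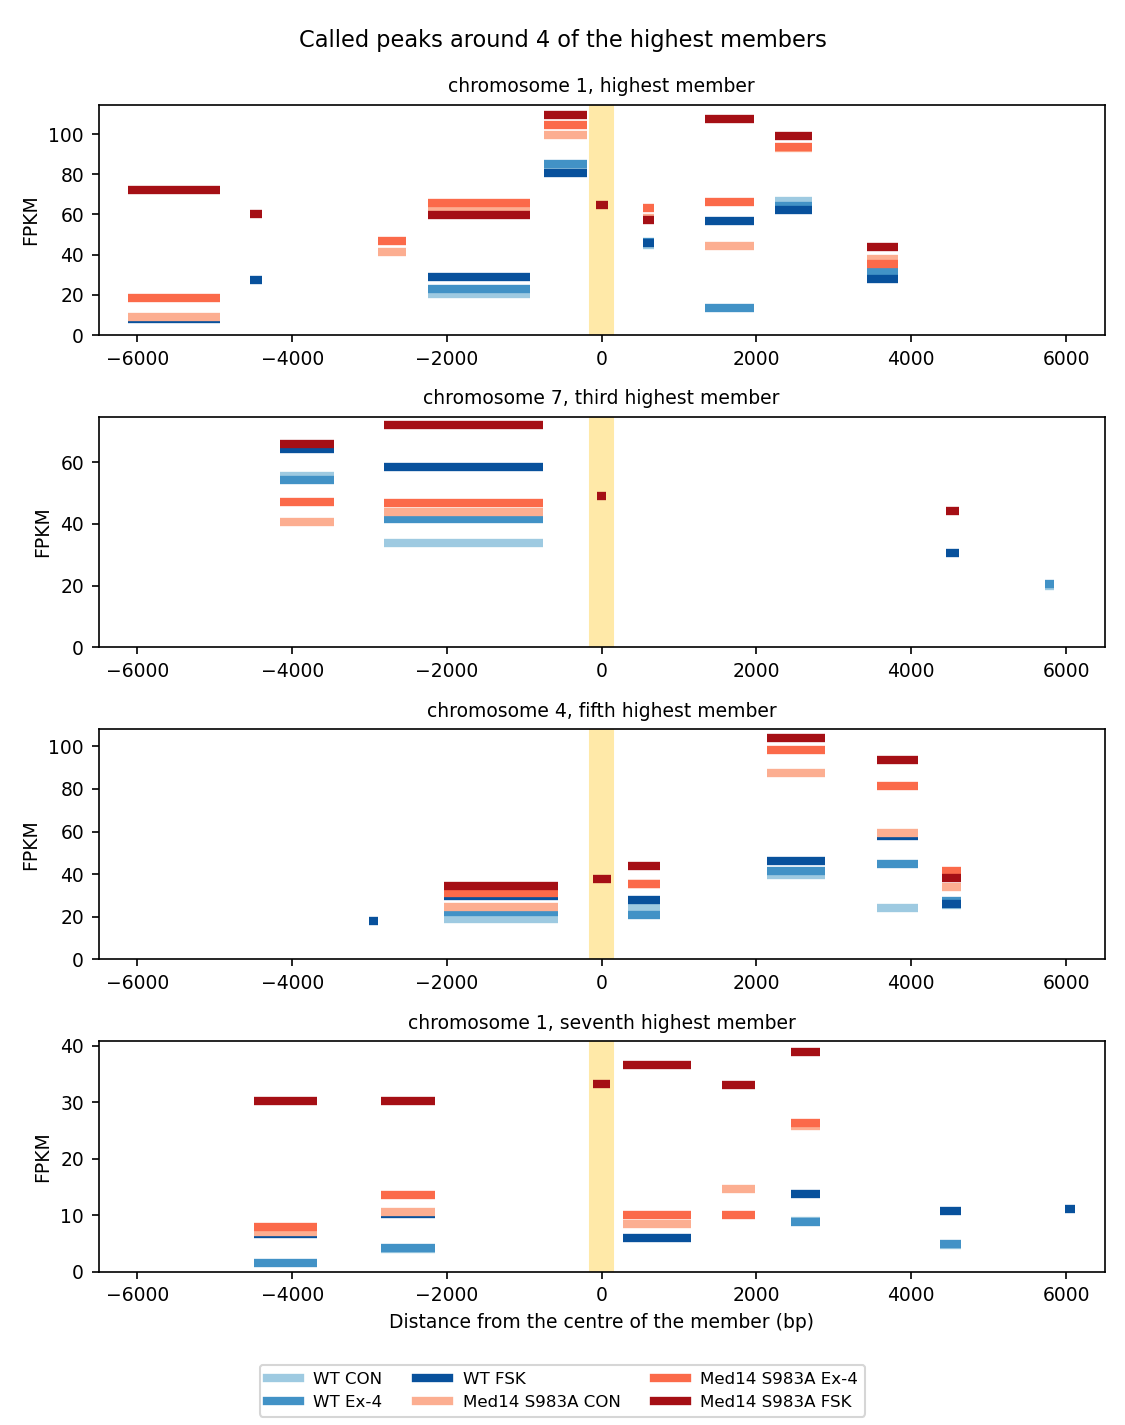
Called peaks within 6.5 kb of 4 of the 10 highest members, as horizontal bars at their FPKM (vertical axis) against distance from the member's centre in bp, coloured by library, with the member in the shaded band and later libraries drawn over earlier ones. In each panel the member appears in Med14 S983A FSK only, whereas peaks around it were called in several libraries; in the panels for chromosome 1 the mutant bars lie above most WT bars.

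Whether the members could have been called elsewhere was assessed from the weakest peak that each library did call within 10 kb. In WT FSK, 5945 members had such a peak and 3879 of them (65.2%) exceeded it. The others were no higher than a level at which WT FSK had a call nearby. The members' share above the local weakest call was 52.6% for WT CON, 55.2% for WT Ex-4, 57.0% for Med14 S983A CON and 63.2% for Med14 S983A Ex-4. That weakest call was taken over peaks of any length, and more calls nearby can lower it. A second reference was the genome-wide median of each library's called peaks under 170 bp. It was exceeded by 55.0% of members for WT FSK and by 31.7% to 45.2% for the other libraries. A margin of 2-fold was kept by 23.7% to 27.3% of members, depending on the library. Only 287 of 4885 members (5.88%) with a call of every other library nearby were at least 2-fold above all of them. Levels in libraries that did not call a member are not known, and the values do not show how far below a call they lay.

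The members were then set among all peaks gained with FSK. Peaks of at least 2 FPKM called in Med14 S983A FSK but in neither Med14 S983A CON nor Ex-4 numbered 21755. Of these, 14304 (65.8%) were also called in WT FSK and 7254 (33.3%) were the members. The overlap depended on peak form. It was 56.5% at 2 to under 3 FPKM and 79.0% at 10 or more, and it was 18.8% below 120 bp, 62.9% at 120 to under 170 bp, 84.8% at 170 to under 300 bp and 93.9% at 300 bp or more, although a call in a further library can itself widen a merged peak. Seen from WT, 17504 of 32325 peaks gained with FSK (54.2%) were called in Med14 S983A FSK and 14159 (43.8%) were called only in WT FSK. These overlaps were not set beside those of all peaks called in each FSK library. Whether they are particular to gained peaks was therefore not tested.

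Shared peaks beside the members were next examined, since the rule did not use them, although they come from the same libraries. The 4711 members pointed to 4316 distinct shared peaks within 10 kb. Differences are on the log2(FPKM + 0.5) scale, and comparisons that involve the same library share its deviations. With FSK in Med14 S983A the median change of these neighbours was -0.041, against -0.12 over all shared peaks. Of the neighbours, 269 (6.23%) were at least 2-fold higher and 147 (3.41%) at least 2-fold lower, against 4.56% higher and 4.28% lower over all shared peaks. Centring the libraries or quantile normalization turned the median change of the neighbours positive, and changed the share of higher peaks among those 2-fold different from 64.7% to 76.4% and 77.6%. Over all shared peaks that share moved in the same way, from 51.6% to 65.3% and 65.8%. The excess of higher neighbours depended on distance. As deposited, 4.61% of the 1302 neighbours within 1 kb of a member were higher, close to the 4.56% of all shared peaks, and 5.15% were lower. Among the 3102 neighbours 1 to 10 kb away, 6.93% were higher and 2.71% lower.

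In the WT libraries, none of which called a member, the neighbours' median change with FSK was -0.093, against -0.13 for all shared peaks, with 307 (7.11%) at least 2-fold higher and 117 (2.71%) lower, against 5.94% and 3.65%. Here the share of higher peaks among those 2-fold different was 72.4% as deposited and 77.3% and 76.9% after the same scalings. Distance mattered in WT too: 5.30% were higher and 3.61% lower within 1 kb of a member, against 7.93% and 2.29% at 1 to 10 kb. Within 1 kb the share of higher neighbours thus lay below the 5.94% of all shared peaks. In all, 208 neighbours were at least 2-fold higher in both genotypes, which is 77.3% of those in Med14 S983A and 67.8% of those in WT. Over all shared peaks the corresponding shares were 79.7% and 61.1%. The shared peaks around strong WT FSK-only peaks (7984) had 5.96% higher in Med14 S983A and 7.85% higher in WT. Around peaks called only in both FSK libraries, at 2 FPKM or more in Med14 S983A FSK, the shares (7505 peaks) were 6.85% and 8.18%. These exceeded the shares beside members, so the excess of higher neighbours was not particular to members. Within 1 kb of strong WT FSK-only peaks the shares were 4.92% and 5.98%, so lower shares at short distance were not particular to members either. With Ex-4, neighbours of members changed by a median of -0.0052 in Med14 S983A and -0.011 in WT, against -0.021 and -0.017 over all shared peaks. At least 2-fold higher were 42 (0.973%) and 31 (0.718%), against 0.634% and 0.448%. At least 2-fold lower were 6 (0.139%) and 2 (0.0463%), against 0.0497% and 0.0625%.

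Between genotypes, the neighbours were slightly higher in Med14 S983A by their median, although more were 2-fold lower than 2-fold higher. The median difference under FSK, mutant minus WT, was 0.10 beside members, 0.037 over all shared peaks and -0.034 beside strong WT FSK-only peaks. At least 2-fold higher in the mutant were 288 neighbours (6.67%, against 4.07% of all shared peaks and 2.66% beside WT FSK-only peaks), and at least 2-fold lower were 463 (10.7%, against 11.4% and 14.7%). Among neighbours 2-fold different, 38.3% were higher as deposited, 53.4% after centring and 52.4% after quantile normalization, whereas over all shared peaks these shares were 26.3%, 40.6% and 38.8%. The same ordering was present without drug: the median difference in CON was 0.079 beside members and 0.051 over all shared peaks, with 325 (7.53%) higher and 481 (11.1%) lower, against 4.9% and 10.5%. Some of the higher neighbours lay in the stretches of chromosome described below. For members outside them, 198 neighbours (4.87%) were higher under FSK and 226 (5.56%) in CON. More were at least 2-fold lower there, 452 (11.1%) under FSK and 470 (11.6%) in CON. The shares over all shared peaks include those stretches and were not computed without them, so the size of any excess outside them is not known. The change with FSK differed little between genotypes at the neighbours of all members, with a median difference of responses of 0.020, against -0.0010 over all shared peaks.

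**Figure D4:**
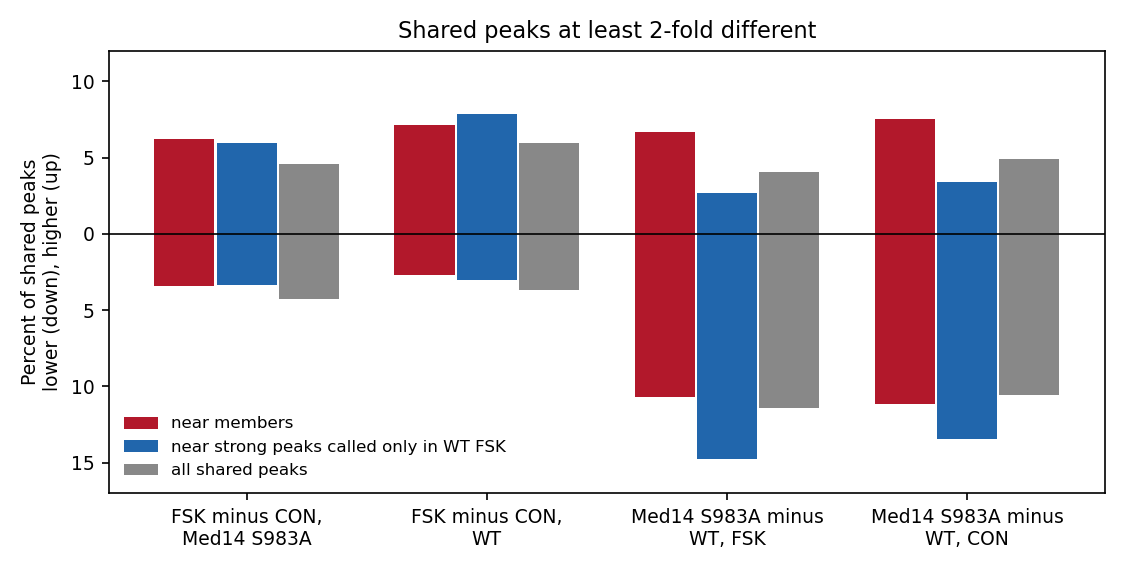
Percent of shared peaks at least 2-fold higher (bars upward) or lower (bars downward) in 4 comparisons, for the 4316 shared peaks nearest to members (red), the 7984 nearest to strong peaks called only in WT FSK (blue) and all 86465 shared peaks (grey). The red bars for Med14 S983A minus WT reach 6.67% under FSK and 7.53% in CON on the higher side, above the grey bars in both.

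The 5 members whose shared neighbour rose most with FSK in Med14 S983A are given with that neighbour's values, which chose them and favour a low mutant CON. On chromosome 20, a member of 10.8 FPKM from 10673849 lay 1544 bp from a peak that rose from 0.37 to 1.504 with Ex-4 and 16.5 with FSK in Med14 S983A, and from 8.93 to 13.8 and 25.2 in WT. On chromosome 1 from 226498232, a member of 25.7 FPKM lay 101 bp from a peak that went from 1.84 to 10.2 and 27.9 in Med14 S983A and from 8.33 to 25.3 and 50.9 in WT. At both, CON was lower in the mutant than in WT, and WT FSK was the highest of the values.

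A member on chromosome 5 from 140644910 (10.0 FPKM) had a neighbour of this kind too, at 0.82, 2.69 and 11.9 FPKM in Med14 S983A CON, Ex-4 and FSK and 6.73, 10.4 and 22.1 in WT. On chromosome 1 from 52797169 (10.8 FPKM), the neighbour went from 1.12 to 5.42 and 16.1 in the mutant and from 0.421 to 2.12 and 13.6 in WT. On chromosome 3 from 8551321, a weak member (2.18 FPKM) lay 5463 bp from a peak at 4.18, 14.8 and 44.2 FPKM in the mutant and 3.79, 8.61 and 39.7 in WT. In all 5 of these neighbours Ex-4 lay between CON and FSK in both genotypes.

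The nearest peak of any kind showed a genotype bias. It was called in mutant libraries only for 25.2% of members, for 7.89% of strong WT FSK-only peaks whereas 13.99% of all merged peaks were mutant-only. It was called in WT libraries only for 14.1% of members and 30.8% of strong WT FSK-only peaks, and 22.6% of all peaks were WT-only. Restricted to peaks called in at least 2 libraries, which leaves out other single-library peaks, the mutant-only share was 11.6% for members, 2.82% for strong WT FSK-only peaks and 6.04% of all such peaks. For 524 members the nearest peak was another member, and 1493 members (20.6%) had another member within 10 kb.

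Members were unevenly spread over the genome. Per 1000 peaks called in Med14 S983A FSK there were 50.3 members genome-wide, from 28.3 on chromosome X and 28.4 on chromosome 15 to 70.6 on chromosome 5 and 85.5 on chromosome 9. Chromosomes 5 and 9 hold stretches over which shared peaks were at least 1.5-fold above the median genotype difference in CON, Ex-4 and FSK alike. The stretch on chromosome 9 from 79471184 to 111212494 held 283 members (130 per 1000 called peaks), and that on chromosome 5 from 154332416 to 173623794 held 203 (102 per 1000). Strong WT FSK-only peaks were sparse there, at 37.3 and 52.1 per 1000 peaks called in WT FSK, against 83.6 genome-wide.

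Where shared peaks were lower in the mutant, the reverse held. On chromosome 4 from 159257677 to 180278318 there were 15 members (25.1 per 1000) and 193 strong WT FSK-only peaks (154 per 1000), and on chromosome 15 from 56885 to 5565084 there were 5 (17.1 per 1000) and 87 (160 per 1000). Together the raised stretches held 6.70% of members, 2.89% of all peaks called in Med14 S983A FSK and 1.09% of strong WT FSK-only peaks, and the lowered stretches held 0.276%, 0.617% and 1.98%. These stretches were shifted in untreated cells as well (median log2 differences in CON of 0.89 on chromosome 9 and 0.90 on chromosome 5), so members there lie in regions where mutant signal was higher before FSK. Altered copy number and altered accessibility over such stretches cannot be told apart here. Outside the stretches, chromosomes 9 and 5 had 62.9 and 62.7 members per 1000, and chromosome 9 had 58.6 without the raised window just past its stretch, at 112 to 113 Mb. Outside the stretches the nearest peak was mutant-only for 24.1% of members.

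Away from these extremes, members were only weakly related to the genotype difference of their chromosome. Across the 21 chromosomes, members per 1000 called peaks had a Spearman's rho of 0.13 and a Pearson's r of 0.43 with the median genotype difference of shared peaks in CON, and -0.18 and -0.13 without chromosomes 5 and 9, whereas strong WT FSK-only peaks gave -0.78 and -0.84 (-0.71 and -0.79 without both). These values describe chromosomes measured in the same libraries. The 422 runs of 200 neighbouring shared peaks were also ordered by the same difference and divided into 5 equal parts. Members per 1000 numbered 40.5, 49.2, 46.6, 49.7 and 65.1 from the lowest to the highest part, and 56.7 in the highest part without the raised stretches. Strong WT FSK-only peaks per 1000 numbered 101, 82.7, 84.1, 79.8 and 64.4 over the same parts, and 66.9 in the highest part without the raised stretches.

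**Figure D5:**
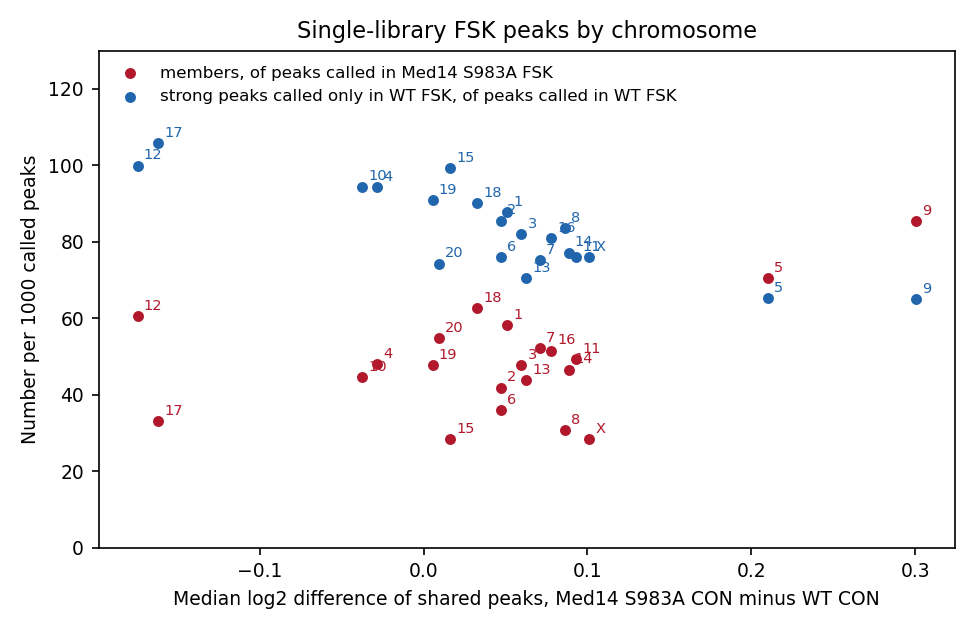
Members per 1000 peaks called in Med14 S983A FSK (red) and strong WT FSK-only peaks per 1000 called in WT FSK (blue) for each of 21 chromosomes, against the median log2 difference of shared peaks between untreated Med14 S983A and WT. Chromosomes 5 and 9 stand apart to the right, and there alone the red points lie above the blue.

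At a finer scale, the windows of 1 Mb with the most members were all on chromosome 9, at 111 to 112 Mb (27 members), 99 to 100 Mb (24) and 112 to 113 Mb (24), beside 4, 1 and 0 strong WT FSK-only peaks. In the same order, these windows held 120, 111 and 94 peaks called in Med14 S983A FSK. The median window with any member held 3 members. The last of these windows lies just past the raised stretch, but its shared peaks had a median genotype difference in CON of 0.99, against 0.89 in the stretch.

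The longest chain of members with gaps of at most 10 kb, chosen after its values were seen, lay in the first of these windows. It comprised 10 members over 38.1 kb, from 111071071 to 111109129, and their levels were alike, between 6.01 and 9.05 FPKM. Of 23 merged peaks in that interval, 20 were called in Med14 S983A FSK, 11 in WT FSK, 8 in Med14 S983A Ex-4, 5 in Med14 S983A CON, 4 in WT Ex-4 and 2 in WT CON. The members account for 10 of these calls in Med14 S983A FSK by selection, and of the other 13 peaks 10 were called in Med14 S983A FSK and 11 in WT FSK. The 9 peaks called in both FSK libraries were all higher in Med14 S983A, by 1.38-fold to 2.64-fold with a median of 1.92. Higher mutant levels were not particular to this chain: over the raised stretch that holds it, shared peaks had a median log2 difference under FSK of 0.83. In WT FSK the weakest called peak there had 2.29 FPKM and the median 3.71, so WT cells treated with FSK also had accessible sites along this interval, at lower levels.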

How the data were processed

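The 6 ATAC-seq libraries of INS-1 cells, 1 per condition, were used. Per the methods and the submitters' processing notes, the authors used Trim Galore for trimming, BWA for alignment to rn6, SAMtools to remove mitochondrial, low-quality and duplicate reads, and MACS2 for peak calling. The authors deposited FPKM values over merged peaks, computed with HOMER, with the peak lists that held each peak. The methods place a shift of fragments for the cut site after peak calling, on the way to footprinting, and the sources used here do not state whether the deposited values use it or whether replicates were pooled.

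FPKM are relative to reads in a library's own peaks, so a library with more called peaks has each value lowered. Reads were recovered from the steps of 4000 low values per library, of which 100% lay within 0.15 of a whole number. The 3 mitochondrial peaks were left out.

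The nearest shared peak within 10 kb was taken once per distinct peak, on the log2(FPKM + 0.5) scale, with a 2-fold size rule. Stretches were runs of 200 shared peaks shifted at least 1.5-fold in each treatment. The intervals printed with FPKM values are exact Poisson intervals at 95% and cover counting error only. No p-value was computed.

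The regions named are the 10 members of highest level, 3 on each side of the threshold, the 3 widest, the 3 most remote, the 3 fullest 1 Mb windows and the 5 whose shared neighbour rose most. The planned gene lists and motif counts needed rn6 and were not analysed here. The members, lists and comparisons were chosen with earlier results of these data known. Alternatives covered the threshold, pseudocount, filter, scaling, distance and run settings, and members outside the stretches were added after the data were seen. The scripts were tested on simulated data. Calculations ran in Python 3.11.15 with pandas 2.3.3, scipy 1.17.1 and numpy 2.4.6, and plots were drawn with matplotlib 3.10.9.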

Additional observations from a re-analysis of the deposited data

Results flagged for a closer look

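Of the 4316 shared peaks nearest to members, 1 moved at least 2-fold in opposite directions with FSK in the 2 genotypes, rising in Med14 S983A and falling in WT. It lies on chromosome 1 from 199054098 to 199054477, 250 bp from a member of 2.83 FPKM. It read 2.26 FPKM in WT CON, 2.23 in WT Ex-4 and 0.819 in WT FSK, and 1.18, 2.30 and 2.98 in Med14 S983A CON, Ex-4 and FSK. With 1 library per condition, the difference between genotypes was not tested. No neighbour moved 2-fold in the reverse pattern.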

How the results depend on the processing

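No paired analysis was possible because the groups share fewer than 2 replicate numbers, and leaving out a library would remove its condition. A fit that takes the treatments as pairs of the genotypes was not run, since its residual is the difference between treatments and not the error between replicates. Thresholds of 1.5 and 3 FPKM gave members a median length of 124 and 118.5 bp and a median gap of 1567 and 963 bp, and 62.3% and 73.6% of gained peaks were also called in WT FSK. At 3 FPKM there were 3052 members, the share inside raised stretches was 7.90%, and the neighbours' median FSK change was -0.017 in Med14 S983A and -0.067 in WT, with a genotype difference of 0.13. The median gap was 3624.5 bp to peaks called in Med14 S983A CON and 6048 bp to peaks called in all 6 libraries.

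Centring and quantile normalization turned the neighbours' median FSK change in Med14 S983A to 0.067 and 0.039, changed that in WT to -0.037 and -0.038 and the genotype difference under FSK to 0.27 and 0.17. Over all shared peaks the same medians became -0.016 and -0.044, -0.079 and -0.080, and 0.21 and 0.10, so each neighbour median stayed above that of all shared peaks under both. With neighbours within 2 kb the FSK changes were -0.070 in Med14 S983A and -0.12 in WT, and with neighbours 1 to 10 kb away that in Med14 S983A was -0.027. Members outside the stretches gave a genotype difference of 0.078. Runs shifted 1.3-fold put 7.87% of members in raised stretches, against 3.43% of called peaks. The other 25 recomputed values stayed within 1.5 times the reported count, or within a 95% interval of the reported value. That interval takes peaks of these libraries as its units, so it served only as a yardstick and does not measure error between replicates. The median member held 61 reads, and how depth affected the calls was not tested.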
